A study of Drosophila melanogaster with 4 samples.

Results

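The cells described here are the 2121 female germ cells of a single-cell RNA-seq library made from Drosophila melanogaster embryos of 8 to 20 h after egg laying, out of 12569 cells in that library and 16371 cells in the scRNA-seq libraries of the study. They were ranked by the RNA of 5 X-linked genes, OtopLc, CG34434, CG15599, TfIIA-S-2, and CG32814, and the 707 cells at the top of the ranking (advanced cells) were set against the 707 at its bottom (bottom cells), with 707 middle cells between them. A cell was taken as a germ cell when 9 germline genes (nos, vas, pgc, zpg, aub, AGO3, gcl, ovo, and tej) together gave at least 8 unique molecular identifiers (UMIs, 1 for each captured transcript) and at least 5 UMIs per 10000. It was taken as female when its X-linked UMIs amounted to at least 0.195 of its autosomal UMIs. Of the 4191 germ cells, 2121 passed that limit, 1947 had a ratio of 0.17 or less and are called male here, and 123 lay between. Which genes chose and ordered the cells was decided on measured values, so the contrast of advanced with bottom cells is a description throughout.

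The embryos carried vas-GFP, a transgene that labels germ cells with green fluorescent protein from the vas promoter. Germ cells of 8- to 12-h embryos and whole gonads of 12- to 20-h embryos were sorted by fluorescence, and the gonads were then digested to single cells, so that the library also holds somatic gonadal precursors (SGPs). Both collections were pooled, and the age of a single cell is not known. A 0- to 8-h library of vas-GFP germ cells and a multiome library of vas-GFP nuclei from 0 to 20 h, read for RNA and for open chromatin, served for comparison. Every library stands alone as 1 sample. No difference could therefore be tested across samples, and all 95% intervals cover counting error only.

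Fly germ cells form at the posterior pole from germ plasm, a cytoplasm loaded with maternal RNA and protein, and at first hold their transcription silent, in part through the product of pgc. After their genome is switched on they migrate to the SGPs and are enclosed with them in the gonad, where sex-specific programs begin. Females have a pair of X chromosomes and males a single one. Among the ranking genes, TfIIA-S-2 encodes a relative of the small subunit of the general transcription factor TFIIA, and OtopLc belongs to the otopetrin family of proton channels.

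The female call was checked against Y-linked genes, which it did not use. Their UMIs numbered 0 in advanced cells, which allows up to 0.197 CPM (counts per 1000000 UMIs of a group, the measure of level used throughout), 1 in middle cells, 4 in bottom cells, and 386 in male germ cells (8.42 CPM). The ratio of X-linked to autosomal UMIs had a median of 0.227 in the female cells and 0.138 in the male cells. These medians follow from the limits that chose the cells and do not check the call. Within 0.01 of the female limit lay 138 germ cells. The 9 germline genes together gave 12.8 UMIs per 10000 in bottom, 13.8 in middle, and 14.4 in advanced cells, against 1.28 in SGPs. SGPs were taken as cells with at least 5 UMIs of 10 SGP markers and at most 2 germline UMIs, so the gap to them follows from the limits. The scRNA-seq libraries shared 0 cell barcodes. Median depth was 21527 UMIs in advanced, 21353 in middle, and 21375 in bottom cells, and 3648 in SGPs.

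The score, which is the UMIs of the 5 genes per 10000 UMIs of a cell, had a median of 3.44 in bottom cells (0 to 5.07), 6.47 in middle cells (5.08 to 8.02), and 10.1 in advanced cells (8.02 to 22.1). It ran without a gap: 263 cells lay within 0.5 of the limit between bottom and middle cells, so that the groups are ranges of a score and not types of cell. A score of 0 was found in 28 bottom cells. Male germ cells had a median score of 2.63 and SGPs one of 0. Across the female cells, score and total UMIs had a Spearman rho of 0.04.

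**Figure D1:**
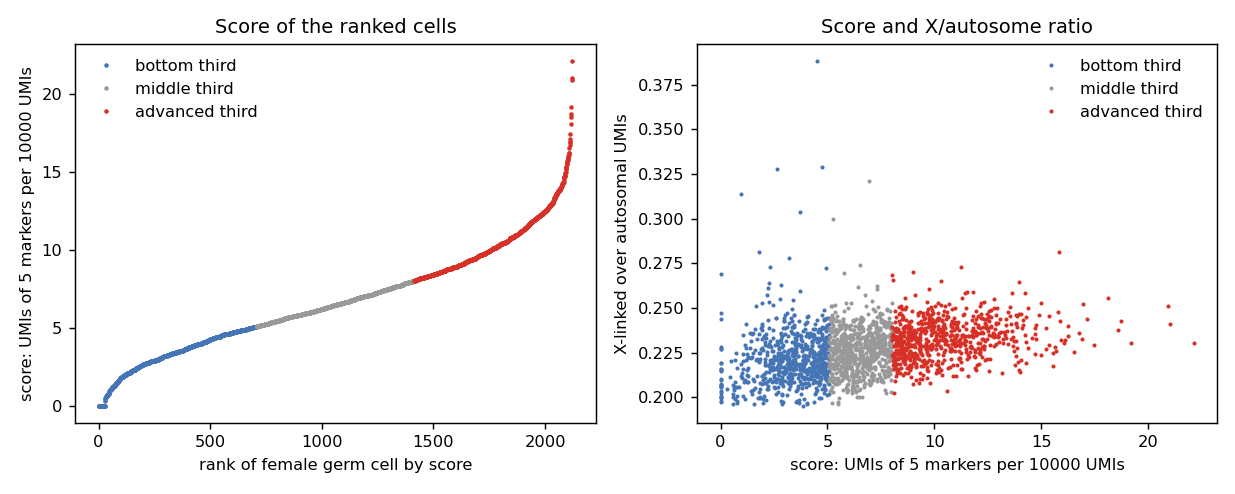
Left, score (UMIs of the 5 markers per 10000 UMIs) of each female germ cell against its rank, with bottom, middle, and advanced cells in separate colours. Right, ratio of X-linked to autosomal UMIs of the same cells against the score, where the median ratio is 0.233 in advanced and 0.221 in bottom cells.

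The promoters of the ranking genes are shown because these genes set the order of the cells. Each run holds 250 bases before the annotated start of the gene and 50 bases from it onward, 5′ to 3′ on the strand of the gene, cut from the reference genome of the BDGP6 assembly. All 5 genes lie on the minus strand of the X chromosome, OtopLc at chrX:5650567-5662861, CG34434 at chrX:5614554-5616370, CG15599 at chrX:15684947-15688857, TfIIA-S-2 at chrX:1011101-1011643, and CG32814 at chrX:1019795-1026700, where it overlaps CG11638. Capitals mark matches to 6 motifs, which were searched on both strands. The DRE, bound by Dref, was taken as TATCGATA. The core of the BEAF-32 motif, which the DRE contains, was taken as CGATA. The Ohler 1 motif, bound by M1BP, was taken as GGTCACAC, and the motif of Zelda as CAGGTAG. The TATA box was taken as TATAAA, and the motif of GAGA factor as GAGAG.
OtopLc, chrX:5662812-5663111: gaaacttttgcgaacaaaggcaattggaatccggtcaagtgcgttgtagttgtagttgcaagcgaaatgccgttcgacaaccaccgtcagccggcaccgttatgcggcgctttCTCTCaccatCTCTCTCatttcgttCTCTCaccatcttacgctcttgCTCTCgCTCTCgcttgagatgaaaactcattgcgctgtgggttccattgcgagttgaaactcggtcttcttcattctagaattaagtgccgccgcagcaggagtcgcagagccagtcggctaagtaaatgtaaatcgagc
CG34434, chrX:5616321-5616620: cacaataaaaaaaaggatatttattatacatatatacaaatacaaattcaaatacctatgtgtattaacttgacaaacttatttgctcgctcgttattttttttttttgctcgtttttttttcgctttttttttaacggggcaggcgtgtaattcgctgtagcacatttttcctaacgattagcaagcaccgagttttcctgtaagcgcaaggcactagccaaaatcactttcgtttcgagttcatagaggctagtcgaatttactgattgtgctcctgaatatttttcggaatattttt
CG15599, chrX:15688808-15689107: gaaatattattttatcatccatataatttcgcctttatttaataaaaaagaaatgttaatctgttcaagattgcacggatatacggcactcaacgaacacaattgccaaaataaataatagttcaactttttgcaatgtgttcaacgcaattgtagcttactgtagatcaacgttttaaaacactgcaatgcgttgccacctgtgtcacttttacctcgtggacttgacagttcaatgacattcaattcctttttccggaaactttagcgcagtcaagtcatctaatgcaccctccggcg
TfIIA-S-2, chrX:1011594-1011893: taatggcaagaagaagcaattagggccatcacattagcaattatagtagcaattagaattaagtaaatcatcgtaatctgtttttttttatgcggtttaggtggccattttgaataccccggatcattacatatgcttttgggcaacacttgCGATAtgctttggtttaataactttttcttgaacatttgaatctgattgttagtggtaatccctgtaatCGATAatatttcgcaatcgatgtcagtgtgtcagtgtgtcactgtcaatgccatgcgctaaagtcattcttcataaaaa
CG32814, chrX:1026651-1026950: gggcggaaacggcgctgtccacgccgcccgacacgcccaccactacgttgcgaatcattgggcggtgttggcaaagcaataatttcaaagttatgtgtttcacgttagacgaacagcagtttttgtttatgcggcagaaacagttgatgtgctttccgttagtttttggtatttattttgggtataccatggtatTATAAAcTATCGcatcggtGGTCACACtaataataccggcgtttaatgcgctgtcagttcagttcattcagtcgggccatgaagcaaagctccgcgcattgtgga

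No motif was common to the 5 windows. OtopLc held GAGAG 6 times on the strand opposite to the gene, between 137 and 84 bases before the start. TfIIA-S-2 held CGATA at 98 and 29 bases before the start, and CG32814 held TATAAA at 55, CGATA at 48, and GGTCACAC at 36 bases before it. CG34434 and CG15599 held none of the 6. Of 13839 promoters of the same length, 29.7% held GAGAG, 47.3% CGATA, 45.8% TATAAA, 7.72% GGTCACAC, 9.26% TATCGATA, and 1.64% CAGGTAG.

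The ranking genes climbed the order that they set at different slopes. CG34434 was at 27.1 CPM in bottom, 70.1 in middle, and 167 in advanced cells. CG15599 was at 51.6 in bottom, 117 in middle, and 210.3 in advanced cells, TfIIA-S-2 at 140.5 in bottom, 263 in middle, and 389 in advanced cells, and CG32814 at 74.0 in bottom, 132 in middle, and 215 in advanced cells. OtopLc, at 45.2 in bottom, 67.0 in middle, and 76.9 in advanced cells, had the smallest difference. Each gene was also compared between the top and bottom groups of a ranking by the other 4 genes. The log2 ratio was 1.56 for CG34434 (1.43 to 1.69), 1.08 for CG15599 (0.98 to 1.18), 0.76 for CG32814 (0.67 to 0.85), 0.66 for TfIIA-S-2 (0.59 to 0.72), and -0.07 for OtopLc (-0.20 to 0.06). The intervals of 4 of the genes lay above 0, while the interval of OtopLc included 0. The ranking genes were themselves chosen on measured values, and the intervals cover counting error only. These ratios therefore describe the cells and do not test the score. Over 2101 cells thinned to 5000 UMIs each, the 10 pairs of genes had Spearman coefficients between -0.016 and 0.134. These cells share 1 library, and coefficients this weak in sparse counts are no finding.

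Thinning to 5000 UMIs left out 6 advanced, 6 middle, 8 bottom, and 2546 SGP cells as too shallow. CG34434 then had a UMI in 11.9% of bottom cells (exact binomial 95% interval 9.57 to 14.5), 28.2% of middle cells (24.9 to 31.7), and 49.9% of advanced cells (46.2 to 53.7). Without thinning the shares were 36.6%, 68.3%, and 86.7% in the same order. SGPs had a UMI of it in 0.841% of thinned cells, and the highest such share among the 5 genes was 3.36% for TfIIA-S-2. In bottom cells the share was higher for every ranking gene, between 11.9% for CG34434 and 46.1% for TfIIA-S-2. SGPs were limited to at most 2 germline UMIs, so a low share of germ cell RNA in them was likely in advance. The part of free RNA in bottom cells was not tested.

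In the 291 germ cells of the 0- to 8-h library that met the same limits, OtopLc was at 9.08 CPM, CG15599 at 11.9, CG34434 at 32.0, CG32814 at 77.4, and TfIIA-S-2 at 119. OtopLc, CG15599, and TfIIA-S-2 were thus lower there than in bottom cells, and CG34434 and CG32814 slightly higher. The X ratio has no separate female peak in that library, so these cells are its upper tail and may be of either sex. They are called 0- to 8-h female cells below by that limit only. No file gives the age of a cell, and the word advanced stands here for the score.

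The groups also differed in RNA that the rule did not aim at. The 10 SGP markers amounted to 278 CPM in bottom, 144 in middle, and 101 in advanced cells, against 2945 in SGPs. At least 2 such UMIs were present in 313 advanced and 416 bottom cells, and at least 20 in 7 advanced and 47 bottom cells. Of these markers 8 could be compared, and 7 were at least 1.5-fold lower in advanced cells (range of log2 ratios -3.17 to -0.50). RNA of sisA, which counts X chromosomes in the early embryo, and of Tom, of the Bearded family, reached 2 UMIs in 7 advanced, 13 middle, and 77 bottom cells. Ratios are therefore also given for the 1018 cells without at least 2 SGP marker UMIs or at least 2 sisA and Tom UMIs, ranked anew with 339 cells to a group. They are called cleared cells and were defined after the values were seen. Which part of the other differences comes with RNA of SGPs was not tested beyond this. The 291 cells of the 0- to 8-h library were not cleared. At least 2 SGP marker UMIs were present in 157 of those (54.0%), and at least 2 sisA and Tom UMIs in 55.

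Of the 6829 genes with at least 100 UMIs in both groups together, the ranking genes left out, 235 (3.44%) were at least 1.5-fold higher in advanced than in bottom cells and 777 (11.4%) at least 1.5-fold lower. At 2-fold the numbers were 49 (0.718%) higher and 373 (5.46%) lower. The shares at 1.5-fold are the background for the counts of the gene lists below. The median log2 ratio over all genes was -0.09. The log2 of the scaling factors by trimmed mean (TMM) of advanced over bottom cells was -0.13, so that ratios scaled with them lie higher by that amount. With them 387 genes were higher and 577 lower, and the higher ones made up 40.1% of the genes past 1.5-fold, against 23.2% with scaling by total UMIs.

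In cleared cells 5932 genes were compared, and 164 (2.76%) were higher and 229 (3.86%) lower. At 2-fold 21 (0.354%) were higher and 55 (0.927%) lower. Cleared cells are part of the same cells, ranked by the same score. Genes picked in all cells were therefore likely to keep their sign there, which is no separate support. Of the 235 higher genes, 168 could still be compared, 168 of them had ratios above 0, and 104 were still past 1.5-fold. Of the 777 lower genes, 398 could be compared, 378 had ratios below 0, and 181 were still past 1.5-fold. The 1 gene that passed it in the opposite direction was wisp, a cytoplasmic poly(A) polymerase of the oocyte, at -0.82 in all and 0.64 in cleared cells.

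**Figure D2:**
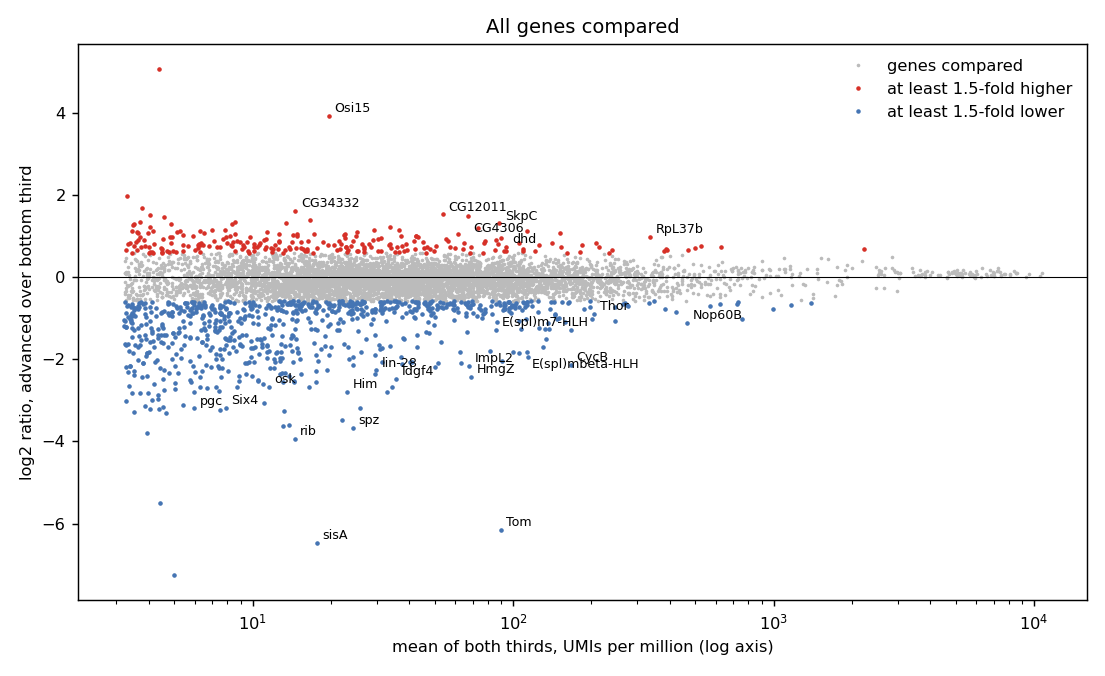
Log2 ratio of advanced over bottom cells for each of the 6829 genes compared, against the mean level of both groups in CPM (log axis), with the 235 genes at least 1.5-fold higher and the 777 at least 1.5-fold lower in colour. Lower genes reach further from 0 than higher ones, and the outlying points Osi15, CG12011, sisA, and Tom rest on few cells.

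Middle cells lay between the outer groups for 220 of the 235 higher genes and 715 of the 777 lower genes, beside 4524 of all 6829. Both sets were picked for a gap between the outer groups, so a middle value between them was likely in advance. The sets differed in where else their RNA was abundant. Of the lower genes, 452 (58.2%) were at least 2-fold above middle cells in SGPs and 249 (32.0%) in 0- to 8-h female cells, beside 14.2% and 14.4% of all genes compared. Of the higher genes, 19 were so in SGPs and 8 in 0- to 8-h cells. Neither held for 210 of the higher genes (89.4%) and 177 of the lower genes (22.8%). Male germ cells were at least 1.5-fold below middle female cells for 43.4% of the higher and 6.82% of the lower genes, beside 13.3% of all genes compared, a comparison in which the single male X takes part.

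The largest ratios upward had to be read cell by cell. Osi15 had 562 UMIs in advanced and 38 in bottom cells, but 550 of those in advanced cells came from 1 cell. CG12011 had 1213 UMIs in advanced and 435 in bottom cells, with 606 and 425 of them in the highest cell of each group, and CG43332 was seen in 3 advanced and 3 bottom cells. With Osi18 these made up the 4 genes among the 235 with most UMIs of a group in 1 cell. The leading gene found in many cells was CG34332, X-linked and of unknown role, at 22.01 CPM in advanced and 7.21 in bottom cells (log2 ratio 1.61, 1.30 to 1.93). It was seen in 247 advanced and 88 bottom cells.

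CG4306 was at 98.6 CPM in advanced and 35.4 in bottom cells (log2 ratio 1.48, 1.34 to 1.62), with 61.3 in middle cells. It stood at 2.16 in 0- to 8-h female cells, 19.4 in male germ cells, and 149 in SGPs. SkpC, of the Skp family that joins F-box proteins to a ubiquitin ligase, was at 126 CPM in advanced and 51.0 in bottom cells (log2 ratio 1.31, 1.19 to 1.43). Its relatives had smaller ratios, 0.74 for SkpB (0.57 to 0.92) and 0.32 for SkpA (0.27 to 0.38). SkpC and SkpB were scarce in SGPs, at 2.17 and 2.73, whereas SkpA was at 393 there.

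Several of the leading genes are better known from neurons. The cell adhesion gene nrm was at 24.2 CPM in advanced and 9.19 in bottom cells (log2 ratio 1.40, 1.11 to 1.68). The potassium channel gene SLO2 was at 19.2 in advanced and 7.72 in bottom cells (log2 ratio 1.31, 1.00 to 1.63), the sodium channel gene para at 10.8 in advanced and 4.91 in bottom cells (log2 ratio 1.13, 0.73 to 1.54), and the calcium channel gene cac at 49.6 in advanced and 28.3 in bottom cells (log2 ratio 0.81, 0.64 to 0.98). The adenylyl cyclase gene rut (1.05), hiw, which limits synapse growth (1.05), and mtg, of the synaptic matrix (1.10), were picked after their values were seen and had cleared-cell ratios of 1.12, 1.11, and 1.01. The neuron markers as a list lay on both sides. Of 6 compared, para and cac were higher and fne lower, and their summed level was 261 CPM in advanced and 258 in bottom cells.

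The other genes among the 15 highest were VhaM9.7-a, a subunit of the vacuolar proton pump (log2 ratio 1.33), CG3556 (1.23), CG15930 (1.20), CG42299 (1.16), CG32365 (1.14), and the cytochrome P450 gene Cyp6a13 (1.14). CG15930 was the most abundant of them, at 103 CPM in advanced and 44.7 in bottom cells. In cleared cells its ratio was 0.87, and those of CG3556, CG42299, and CG32365 were 1.05, 1.09, and 1.11. The germline thioredoxin gene dhd, picked after its value was seen, was at 118 CPM in advanced and 70.8 in bottom cells (log2 ratio 0.74, 0.63 to 0.85), and its ratio was 1.36 in cleared cells.

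**Figure D3:**
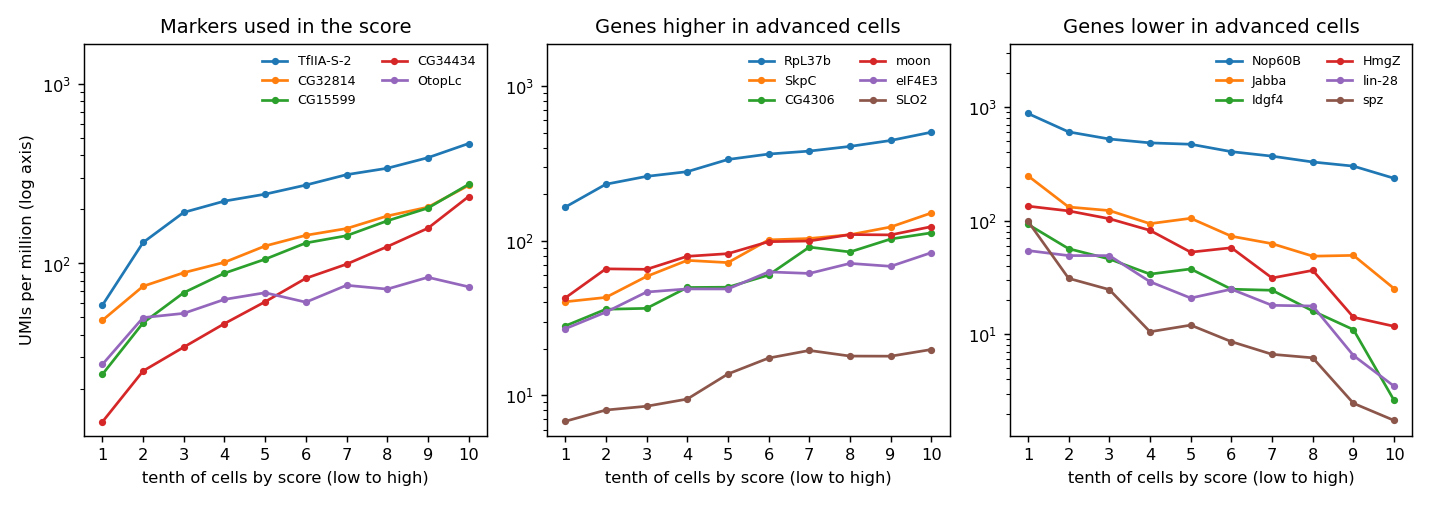
Levels (CPM, log axis) in 10 equal bins of the female germ cells from the lowest to the highest score, for the 5 ranking genes, 6 higher genes, and 6 lower genes. OtopLc levels off in the upper bins, RpL37b is at 165 in the lowest and 503 in the highest bin, and spz is at 98.8 in the lowest and 1.74 in the highest bin.

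Among the ribosomal protein paralogues of the germline RpL37b and RpS19b were at least 1.5-fold higher in advanced cells. RpL37b was at 227 CPM in bottom, 339.5 in middle, and 447 in advanced cells (log2 ratio 0.98, 0.92 to 1.04), and its standard counterpart RpL37A at 3112 in advanced and 2859 in bottom cells (log2 ratio 0.12, 0.10 to 0.14). RpS19b was at 573 in advanced and 366 in bottom cells (log2 ratio 0.65, 0.60 to 0.70), and RpL22-like (0.49) and RpS10a (0.48) stayed under 1.5-fold. Of 9 paralogues compared, 2 were higher, 0 lower, and 8 above 0, with a median log2 ratio of 0.25. In cleared cells RpL37b was at 0.90 and RpS19b, no longer past 1.5-fold, at 0.46, and the median was 0.16. The 89 cytosolic ribosomal protein genes, which include RpL37b, RpS19b, and RpL22-like, had 2 higher, 1 lower (RpLP0-like), and a median of 0.09. RpL37b and RpS19b were low in SGPs (11.1 and 29.7 CPM) and in 0- to 8-h female cells (115 and 104), but not in male germ cells (356 and 675).

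The cap-binding gene eIF4E3 was at 72.9 CPM in advanced and 38.1 in bottom cells (log2 ratio 0.94, 0.79 to 1.08), the only one of 46 translation factor genes past 1.5-fold upward, while eIF2gamma (-0.75), eIF6 (-0.69), and eIF3d1 (-0.62) were lower. The ratio of eIF4E3 was 0.85 in cleared cells, where the list had 1 higher and 1 lower of 45. ATPsynepsilonL, a relative of the epsilon subunit of ATP synthase, was at 480.4 CPM in advanced and 302 in bottom cells (log2 ratio 0.67, 0.61 to 0.72), the only one of 69 nuclear genes for oxidative phosphorylation past 1.5-fold. In cleared cells its ratio was 0.53, under 1.5-fold. That list had 52 genes above 0 and a median of 0.14. The mitochondrially encoded genes had 4 of 12 lower, beside 11.4% of all genes compared, 0 higher, and a median of -0.31. Among them mt:ND5 was at 138 CPM in advanced and 237 in bottom cells (log2 ratio -0.79, -0.86 to -0.71), mt:ND4 at 210.2 in advanced and 339 in bottom cells (-0.69), and mt:ATPase6 at 562 in advanced and 879 in bottom cells (-0.64). In cleared cells these 3 had ratios of -0.76, -0.67, and -0.57.

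The piRNA pathway silences transposons with small RNAs. Of its 33 genes 2 were higher, beside 3.44% of all genes compared, and 1 lower, with a median log2 ratio of 0.12. The higher ones were moon, a TFIIA-related factor that starts transcription of piRNA clusters, and tud, a scaffold of nuage and germ plasm. moon was at 60.6 CPM in bottom, 90.4 in middle, and 112 in advanced cells (log2 ratio 0.89, 0.77 to 1.00), with 46.8 in male germ cells and 2.24 in SGPs, and its ratio was 0.56 in cleared cells. tud was at 193 in advanced and 128 in bottom cells (log2 ratio 0.59, 0.51 to 0.68). The Argonaute genes aub (0.58), AGO3 (0.43), and piwi (0.42) stayed under 1.5-fold, and aub and AGO3 were also among the genes that chose the germ cells. The lower gene was Panx, a nuclear silencing factor (-0.65).

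Other TFIIA genes did not follow TfIIA-S-2 and moon. TfIIA-S was at 824 CPM in advanced and 735 in bottom cells (log2 ratio 0.16, 0.13 to 0.20), and TfIIA-L, the precursor of the large subunits, at 162 in advanced and 220.4 in bottom cells (log2 ratio -0.45, -0.52 to -0.37) but with a ratio of -0.06 in cleared cells. Tbp, the TATA-binding protein, was at 30.5 in advanced and 41.6 in bottom cells (-0.45). Of 25 TFIIA and basal factor genes, 0 were past 1.5-fold in either direction, and their median was -0.11, near that of all genes and 0.03 with TMM scaling. CG11638, which overlaps the ranking gene CG32814, was at 71.6 in advanced and 73.6 in bottom cells (-0.04).

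Oogenesis and meiosis genes had 1 higher of 24, mei-218, a factor of meiotic crossovers, at 13.0 CPM in advanced and 6.64 in bottom cells (log2 ratio 0.97, 0.62 to 1.33). The 3 lower ones were osk, stg, and bam, the last a differentiation factor at 10.6 in advanced and 16.8 in bottom cells (-0.67, and -0.23 in cleared cells). The median of the list was 0.16. Shares over all genes compared were 3.44% higher and 11.4% lower, and cleared cells had 2 higher and 0 lower of 21.

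On the X chromosome 75 of 1252 genes were at least 1.5-fold higher (5.99%) and 110 lower (8.79%), and on the autosomes 158 of 5524 were higher (2.86%) and 653 lower (11.8%). In cleared cells the shares were 5.43% and 2.17% on the X, and 2.15% and 4.20% on the autosomes. X-linked UMIs chose the female cells and X-linked genes ranked them, so these shares are given without a reading. The ratio of X-linked to autosomal UMIs computed without the ranking genes had a median of 0.220 in bottom, 0.226 in middle, and 0.232 in advanced cells.

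Among the genes lower in advanced cells were RNAs of the youngest germ cells. pgc was at 1.18 CPM in advanced and 10.8 in bottom cells (log2 ratio -3.19, -3.98 to -2.49), and osk, the organiser of germ plasm, at 3.15 in advanced and 20.0 in bottom cells (log2 ratio -2.66, -3.13 to -2.22). In 0- to 8-h female cells they stood at 53.0 and 55.6. CycB, a mitotic cyclin whose RNA is stored in germ plasm, was at 61.8 CPM in advanced and 273 in bottom cells (log2 ratio -2.14, -2.24 to -2.04), but its ratio was -0.57 in cleared cells. Of 22 germ plasm genes 3 were lower (pgc, osk, and CycB), beside 11.4% of all genes compared, and 1 higher (tud), with a median of -0.09. In cleared cells 0 of 19 were lower and 0 higher. There osk had 20 UMIs in advanced and 51 in bottom cells, too few to compare. nos, the posterior determinant and with pgc among the genes that chose the germ cells, was at 65.2 CPM in advanced and 63.8 in bottom cells (0.03).

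The lowest ratios rested on few cells. sisA had 6 UMIs in advanced and 548 in bottom cells (log2 ratio -6.47) and was seen in 4 advanced and 45 bottom cells. Tom had 38 UMIs in advanced and 2776 in bottom cells (-6.15), with 455 of them in 1 bottom cell, and was seen in 27 advanced and 114 bottom cells. Both genes served to define the cleared cells.

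Further lower genes kept ratios below 0 in cleared cells. spz, which encodes the Toll ligand, was at 44.9 CPM in bottom, 10.3 in middle, and 3.55 in advanced cells (log2 ratio -3.66, -4.09 to -3.26), and its ratio was -3.62 in cleared cells. It stood at 151 in 0- to 8-h female cells and was seen in 43 advanced and 191 bottom cells. Along the 10 bins of the ranking it was at 98.8 in the lowest, 12.0 in the fifth, and 1.74 in the highest. Jabba, which binds histones to lipid droplets, was at 156 in bottom, 85.1 in middle, and 44.1 in advanced cells (log2 ratio -1.82, -1.95 to -1.70, and -1.59 in cleared cells), with 586 in 0- to 8-h cells and 1.30 in SGPs. Sod3, a superoxide dismutase, was at 12.2 in advanced and 50.8 in bottom cells (-2.06, and -1.44 in cleared cells), with 213 and 1.24 in those 2 groups. Idgf4, a chitinase-like growth factor, was at 10.9 in advanced and 60.4 in bottom cells (-2.47, and -2.30 in cleared cells), with 243 in 0- to 8-h cells and 166 in SGPs. The cell death gene hid (-2.79) had a ratio of -1.06 in cleared cells, and Sptr, a pteridine enzyme (-2.77), had 18 UMIs in advanced and 34 in bottom cells there, too few to compare.

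A second group of lower genes was abundant in SGPs. Him, a mesodermal regulator, was at 5.85 CPM in advanced and 40.5 in bottom cells (log2 ratio -2.79) and 662 in SGPs, and cleared cells had 6 UMIs in advanced and 6 in bottom cells. Six4, an SGP determinant, was at 1.58 in advanced and 14.2 in bottom cells (-3.17), with 2 UMIs in advanced and 1 in bottom cells among cleared cells, which were chosen in part by its RNA. CG9184 (-3.06) was at 956 in SGPs, and 193 of its 309 UMIs in bottom cells came from 1 cell. dsx, which directs sexual differentiation, was at 4.40 in advanced and 22.2 in bottom cells (log2 ratio -2.33, -2.73 to -1.95) and 216 in SGPs, and cleared cells had 9 UMIs in advanced and 15 in bottom cells. These UMIs are too few to compare.

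HmgZ, an HMG-box chromatin protein, was at 117 CPM in bottom, 55.1 in middle, and 21.6 in advanced cells (log2 ratio -2.43, -2.60 to -2.26), and its ratio was -2.13 in cleared cells, still past 2-fold. It stood at 24.6 in 0- to 8-h female cells, 71.4 in male germ cells, and 1069.5 in SGPs. lin-28, an RNA-binding regulator of developmental timing, was at 49.5 in bottom, 22.2 in middle, and 10.2 in advanced cells (log2 ratio -2.27, -2.53 to -2.02), and cleared cells had 14 UMIs in advanced and 56 in bottom cells, too few to compare. It stood at 2.81 in 0- to 8-h cells and 662 in SGPs. beat-IIIc, of a family of axon guidance proteins, was at 5.12 in advanced and 46.6 in bottom cells (log2 ratio -3.19, -3.54 to -2.85) and 276 in SGPs, and cleared cells had 6 UMIs in advanced and 34 in bottom cells. Nplp2 (-3.61) was seen in 20 advanced and 31 bottom cells, with 150 of 401 UMIs of bottom cells in 1 cell. Cleared cells may still hold 1 UMI of an SGP marker, and the part of SGP RNA in these ratios was not tested.

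The remaining genes of the 15 lowest were rib, a transcription factor of tube-forming tissues (log2 ratio -3.94), the EGF receptor antagonist aos (-3.62), the TNF ligand egr (-3.48), Rchy1 (-3.26), and CG15784 (-3.23). All had under 100 UMIs in cleared cells, with 6 UMIs in advanced and 43 in bottom cells for rib. The nuclear receptor gene Hr4, picked after its value was seen, was at 26.4 CPM in advanced and 79.6 in bottom cells (-1.59, and -1.66 in cleared cells), and the Polycomb gene ph-p at 16.1 in advanced and 42.9 in bottom cells (-1.42, and -1.28 in cleared cells). Of 38 genes listed for heterochromatin and Polycomb 3 were lower (ph-p, Su(var)3-9, and bam, which the list also held) and 0 higher, with a median of -0.18.

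**Figure D4:**
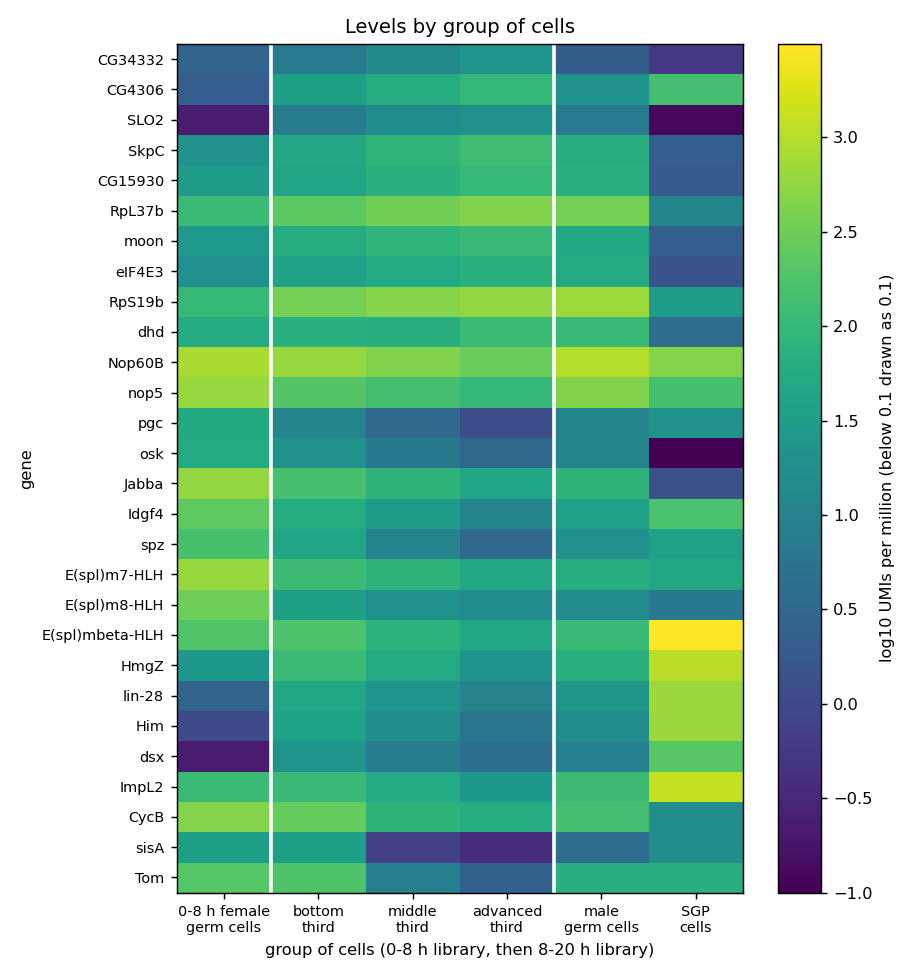
Levels (log10 CPM) of 28 genes in 0- to 8-h female germ cells, in bottom, middle, and advanced female germ cells, and in male germ cells and SGPs of 8 to 20 h. Jabba, spz, and E(spl)m7-HLH are highest in 0- to 8-h cells (586, 151, and 623), and E(spl)mbeta-HLH and HmgZ in SGPs (3119 and 1069.5).

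Genes of the E(spl) complex, which are targets of Notch signaling, were lower in advanced cells. They were picked after their values were seen. All 8 that could be compared were at least 1.5-fold lower, with log2 ratios between -3.01 and -1.29. In cleared cells 5 could be compared, and 5 were lower. E(spl)m7-HLH was at 122 CPM in bottom, 85.0 in middle, and 49.99 in advanced cells (log2 ratio -1.29, -1.41 to -1.17), and E(spl)m8-HLH at 36.3 in bottom, 20.7 in middle, and 14.5 in advanced cells (log2 ratio -1.32, -1.55 to -1.10). Both encode repressors and were more abundant in 0- to 8-h female cells (623 and 316) than in SGPs (47.9 and 6.52). E(spl)mbeta-HLH was at 49.7 in advanced and 176 in bottom cells (log2 ratio -1.82, -1.94 to -1.70) and 3119 in SGPs, and E(spl)m2-BFM at 14.7 in advanced and 46.6 in bottom cells (-1.66) and 687 in SGPs. In cleared cells the ratios were -1.39 for E(spl)m7-HLH, -1.44 for E(spl)m8-HLH, -1.75 for E(spl)mbeta-HLH, and -1.60 for E(spl)m2-BFM. E(spl)m3-HLH (-1.94), at 1005 in SGPs, had 17 UMIs in advanced and 18 in bottom cells among cleared cells. The receptor gene N was at 182 in advanced and 201 in bottom cells (log2 ratio -0.14, -0.22 to -0.07) and the ligand gene Dl at 23.7 in advanced and 19.8 in bottom cells (log2 ratio 0.26, 0.03 to 0.48).

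Nucleolar and ribosome biogenesis genes lay on the lower side as a list. All 42 compared had log2 ratios below 0 (37 of them with TMM scaling), 20 were at least 1.5-fold lower, 0 higher, and the median was -0.57. Their summed level was 6410.1 CPM in bottom, 5415 in middle, and 4434 in advanced cells, with 9651 in 0- to 8-h female and 9275 in male germ cells. Nop60B, the pseudouridine synthase that modifies rRNA, was at 638 in bottom, 439.6 in middle, and 295 in advanced cells (log2 ratio -1.11, -1.16 to -1.06) and was seen in 698 advanced and 685 bottom cells. nop5 (-1.03) and Nop56 (-0.65), core proteins of the particles that guide rRNA methylation, and the methyltransferase Fib (-0.57) were below 0 as well, with Fib just under 1.5-fold. l(1)G0004 was at 68.3 in advanced and 142 in bottom cells (log2 ratio -1.06, -1.17 to -0.95) and CG11920 at 16.3 in advanced and 30.1 in bottom cells (-0.89). In cleared cells 9 of the list were lower, 0 higher, and the median was -0.42. nclb, a chromatin protein outside the list, was at 41.7 in advanced and 68.7 in bottom cells (log2 ratio -0.72, -0.86 to -0.58).

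Genes of the insulin and TOR pathways, which control growth, had 7 of 19 lower, beside 11.4% of all genes compared, 0 higher, and a median log2 ratio of -0.34. In cleared cells 4 of 17 were lower, and the median was -0.26. ImpL2, an insulin-binding antagonist at 1276 CPM in SGPs, was at 24.7 in advanced and 111 in bottom cells (-2.16, and -1.08 in cleared cells). Thor, the 4E-BP that holds back cap-dependent translation, was at 143 in advanced and 267 in bottom cells (log2 ratio -0.90, -0.98 to -0.83, and -0.82 in cleared cells). The insulin-like peptide gene Ilp6 was at 10.2 in advanced and 18.4 in bottom cells (-0.85). Of the list, 18 genes lay below 0 and 1 above it, whether they promote or restrain growth.

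Of 41 DNA replication genes 1 was lower, the licensing gene dup, and 0 higher (median log2 ratio 0.03). Of 44 mitosis genes 2 were lower, CycB and stg, and 0 higher (median -0.06, and 0.03 in cleared cells). CycB had a log2 ratio of -2.14. CycA was at 60.0 CPM in advanced and 61.7 in bottom cells (log2 ratio -0.04, -0.17 to 0.09) and CycB3 at 31.2 in advanced and 46.1 in bottom cells (-0.56). stg, a phosphatase that triggers mitosis, was at 69.5 in advanced and 127 in bottom cells (-0.87) and 1047 in SGPs, and its ratio was 0.08 in cleared cells. Of 17 genes that restrain the cycle 5 were lower, beside 11.4% of all genes compared, and 2 in cleared cells. Among the 5 were the Cdk inhibitor gene dap at 41.9 in advanced and 65.3 in bottom cells (-0.64, and -0.66 in cleared cells) and the retinoblastoma gene Rbf at 22.1 in advanced and 40.5 in bottom cells (-0.88, and -0.40 in cleared cells).

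Of 17 sex determination genes 3 were lower (sisA, dsx, and fru), beside 11.4% of all genes compared, and 1 was higher, beside 3.44%. Cleared cells had 0 higher and 0 lower of 13. Sxl, the female switch gene, was at 163 CPM in advanced and 163 in bottom cells (log2 ratio 0.00, -0.08 to 0.08), and at 74.5 in male germ cells. The higher gene was Phf7, a histone reader known from the male germline, at 60.6 in advanced and 39.2 in bottom cells (log2 ratio 0.63, 0.48 to 0.78), with 80.9 in male germ cells. Of 17 male germ cell genes 3 were higher and 5 lower (median -0.33), beside 3.44% and 11.4% of all genes compared. Cleared cells had 1 higher and 2 lower of 16. The testis regulator aly was at 5.65 in advanced and 2.42 in bottom cells (log2 ratio 1.22, 0.65 to 1.81), vig at 101 in advanced and 216 in bottom cells (log2 ratio -1.10, -1.18 to -1.01), and the JAK-STAT inhibitor Socs36E at 20.0 in advanced and 65.5 in bottom cells (-1.71, and -1.04 in cleared cells). Other genes that the study names include vig2, Pits, and CG4415, and their ratios were -0.33, -0.19, and 0.32. CG18605 was at -0.23, CG32486 at -0.30, and CG12477 at -0.39. The SGP markers CG5149 and Wnt2 were at -0.81 and -2.15, and pnr and upd1 had too few UMIs to compare.

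The study lists 345 genes as zygotically activated in the germline, a list chosen on these samples. Of these, 341 were compared, and the other 4 are ranking genes, which were left out. 19 were higher and 24 lower, beside 3.44% and 11.4% of all genes compared, with a median log2 ratio of -0.02. SkpC had the highest ratio of the 341 genes compared and HmgZ the lowest. Of the factors that bind promoter motifs, M1BP was at 0.27, Dref at 0.03, and BEAF-32 at -0.12. zld, which encodes the Zelda pioneer factor, was at 18.6 CPM in advanced and 31.5 in bottom cells (log2 ratio -0.76, -0.97 to -0.55), and Trl, which encodes GAGA factor, at 5.26 in advanced and 9.83 in bottom cells (log2 ratio -0.90, -1.31 to -0.50). These were the 2 lower genes of 18 in the list of pioneer and insulator proteins, beside 11.4% of all genes compared. Cleared cells had 1 higher and 1 lower of 17.

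The motifs were also counted in the promoters of the genes compared. GAGAG was present in 31.0% of the promoters of higher genes and 42.3% of those of lower genes, beside 25.6% of all genes compared. GGTCACAC was present in 3.45% and 8.13%, beside 14.7%. CGATA was present in 52.6% and 46.7%, beside 59.4%. TATCGATA, which none of the ranking promoters held, was present in 7.33% and 12.2%, beside 17.1%. TATAAA was present in 36.6% and 38.5%, beside 46.0%, and CAGGTAG, also in none of the 5, in 2.59% and 1.44%, beside 1.25%. A match says only that the letters are in the window.

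**Figure D5:**
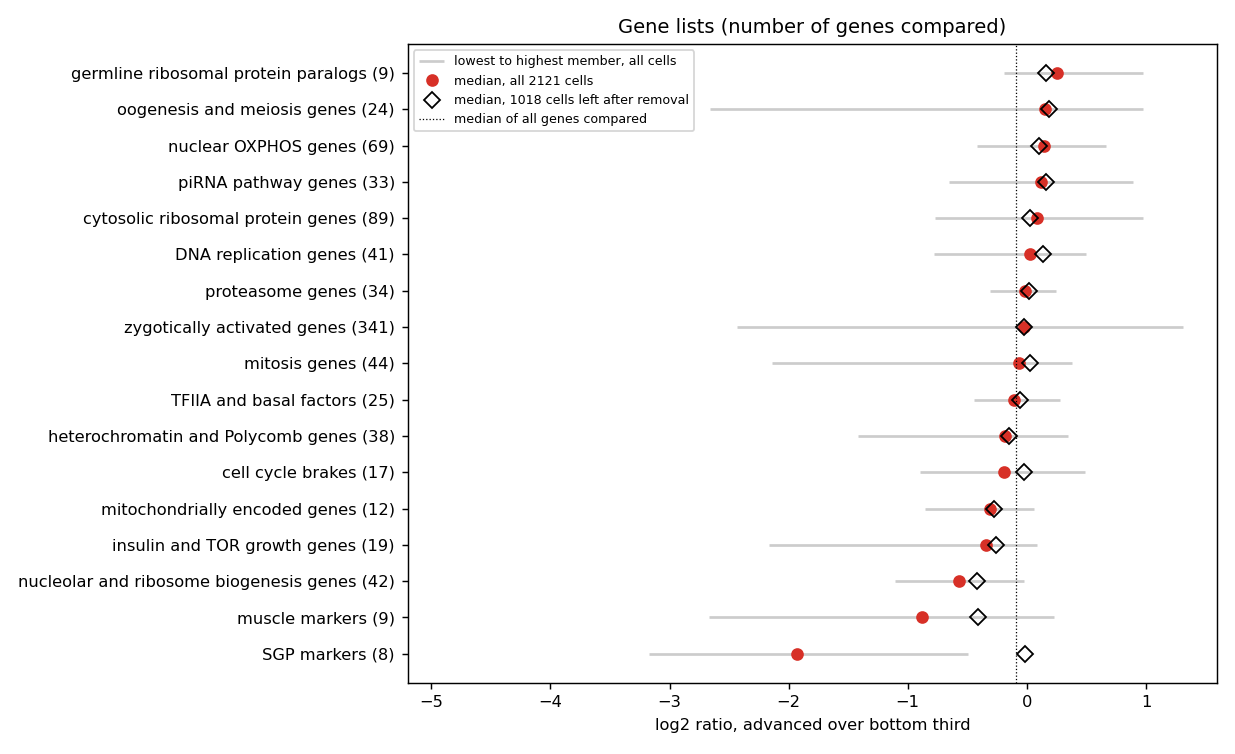
Median log2 ratio of advanced over bottom cells for 17 gene lists in all female germ cells and in the 1018 cleared cells, with the range of the members in all cells as a line. Nucleolar genes lie left of the median of all genes in both (-0.57 and -0.42), while SGP markers lie at -1.93 in all cells and leave 2 genes to compare in cleared cells.

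Heat shock genes had 3 of 12 lower, beside 11.4% of all genes compared, among them Hsp68 (log2 ratio -1.46) and the co-chaperone gene stv (-2.82), and 1 higher, the small heat shock gene Hsp27, at 662 CPM in advanced and 394 in bottom cells (log2 ratio 0.75, 0.70 to 0.80). In SGPs Hsp68 was at 163 and stv at 118 CPM. The list had 1 higher and 0 lower of 10 in cleared cells, where Hsp68 and stv had too few UMIs to compare. Migration and adhesion genes had 4 of 20 lower, beside 11.4% of all genes compared, and 1 higher. In cleared cells 0 of 18 were higher and 1 lower. The lowest of the list in all cells was wun2, a lipid phosphatase of germ cell survival, at 4.27 in advanced and 19.8 in bottom cells (-2.22). The 34 proteasome genes and 74 mitochondrial ribosomal protein genes had 0 past 1.5-fold. Markers of other cell types were lower for 7 of 9 muscle, 1 of 6 hemocyte, and 2 of 2 glia genes, beside 11.4% of all genes compared. For fat body and for midgut and epidermis markers 0 of 2 were lower. In cleared cells 1 of 3 muscle and 0 of 3 hemocyte markers were lower, and 0 glia markers could be compared. The summed muscle markers were at 139.9 in advanced and 241 in bottom cells, with 1573 in SGPs, and their part in other ratios was not tested.

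The same rule was applied to the 3022 nuclei of the multiome library, which include nuclei of 0 to 8 h. Of 683 germ nuclei 179 passed the female limit, but the X ratio of nuclear RNA had no gap there, and 228 (33.4%) lay between the male and female limits. Open chromatin, which the rule did not use, gave a pooled ratio of X-linked to autosomal ATAC counts of 0.262 in the female nuclei, 0.212 in those between, and 0.165 in the 276 at or below the male limit. Y-linked UMIs numbered 4 of 919507 UMIs in the 59 advanced nuclei and 31 of 1891824 in the 59 bottom nuclei. Germ nuclei at or below the male limit had 384 of 7725645. The bottom nuclei may thus include male nuclei, and the part of sex in the nuclear ratios was not tested. Median scores were 4.17 in advanced and 0.459 in bottom nuclei. With at least 20 UMIs in both groups 6027 genes were compared, of which 2224 (36.9%) were at least 1.5-fold higher and 892 (14.8%) lower.

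Of the 235 genes higher in cells, 123 were compared in nuclei, and 111 were above 0 (90.2%), beside 68.3% of the 5774 genes compared in both. Of the 777 lower genes 632 were compared, and 420 were below 0. RpL37b was at 219 CPM in advanced and 65.5 in bottom nuclei (log2 ratio 1.74, 1.41 to 2.07). SkpC was at 64.2 CPM in advanced and 18.0 in bottom nuclei (log2 ratio 1.84, 1.20 to 2.49), and moon at 22.8 CPM in advanced and 6.87 in bottom nuclei (log2 ratio 1.73, 0.67 to 2.85). All 9 ribosomal protein paralogues were above 0, and 8 of them past 1.5-fold. On the other side HmgZ was at 62.0 CPM in advanced and 362 in bottom nuclei (log2 ratio -2.54, -2.96 to -2.15), lin-28 at 39.2 CPM in advanced and 244 in bottom nuclei (log2 ratio -2.64, -3.17 to -2.15), and E(spl)mbeta-HLH at 132 CPM in advanced and 879 in bottom nuclei (log2 ratio -2.74, -3.02 to -2.47). Of 7 E(spl) genes compared in nuclei, 6 had intervals below 0, and that of E(spl)m7-HLH included 0, at 26.1 CPM in advanced and 30.1 in bottom nuclei (log2 ratio -0.21, -0.96 to 0.50).

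The leading genes of the cells did not all keep their direction in nuclei. Of the 15 lowest genes in cells, 13 were compared in nuclei, of which 7 had intervals below 0, 4 included 0, and 2 lay above it. Those above were Nplp2, at 775 CPM in advanced and 245 in bottom nuclei (log2 ratio 1.66, 1.49 to 1.84), and aos, at 60.9 CPM in advanced and 34.4 in bottom nuclei (log2 ratio 0.83, 0.28 to 1.36). The interval of spz included 0, at 28.3 CPM in advanced and 37.0 in bottom nuclei (log2 ratio -0.39, -1.10 to 0.28), as did those of Jabba, Sod3, and Idgf4, whose log2 ratios were 0.21, 0.15, and -0.16. Of the 15 highest genes in cells, 7 were compared, with 5 intervals above 0 and 2 below it. Those below were Osi15, with 1 UMI in advanced and 24 in bottom nuclei, and CG4306, at 28.3 CPM in advanced and 71.9 in bottom nuclei (log2 ratio -1.35, -2.01 to -0.73). The 39 nucleolar genes compared had a median log2 ratio of 0.57, with 18 past 1.5-fold higher and 1 lower, while all genes compared in both libraries had a median of 0.38. Of the 5 ranking genes, a peak of open chromatin lay at the start of OtopLc and of CG32814. The peak at CG32814 had 158 ATAC CPM in female germ nuclei (139 to 179), 98.5 in germ nuclei at or below the male limit (84.8 to 114), and 66.0 in SGP nuclei (51.6 to 83.3). The peak at OtopLc had 99.99 in female germ nuclei, 57.8 in those at or below the male limit, and 62.3 in SGP nuclei. Female nuclei were thus 1.602-fold above those at or below the male limit at CG32814 and 1.73-fold at OtopLc. The ratio of X-linked to autosomal ATAC counts was 1.59-fold higher in female nuclei over the whole X. That ratio takes autosomal counts as its base, whereas the peak levels take all ATAC counts. The folds are therefore not on the same scale and were not compared.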

How the data were processed

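The authors processed reads with Cell Ranger 6.1.2 (cells) and Cell Ranger ARC 1.0.0 (nuclei) on BDGP6 (names and versions as in the submitters' processing notes), and deposited counts of UMIs for every gene in each cell, and ATAC counts per peak and nucleus, without normalization. Here counts were summed over the cells of each group and divided by its total UMIs, which were 15222769 in advanced, 15382791 in middle, and 15671057 in bottom cells. Where a group had 0 UMIs of a gene, 3 were taken. Ratios have exact conditional (Clopper-Pearson) 95% intervals. Gene positions were read from an Ensembl gene set on BDGP6 that holds 99.5% of the genes.

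The members, lists, and rules were chosen with earlier results of these data known. Named are the 5 ranking genes, the 15 highest and 15 lowest ratios among genes with 200 UMIs, genes the study names, and at most 4 genes of each list by size of ratio. Other named genes were chosen after their values were seen. Doublets were kept: Scrublet called 551 cells of the library (4.38%), and 33 advanced, 67 middle, and 64 bottom cells. Reads of overlapping genes and of close paralogues cannot be told apart with certainty. The aggregated matrix was not used here.

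Sums and intervals were computed with scipy 1.17.1, pandas 2.3.3, and numpy 2.4.6 in Python 3.11.15, doublets with scanpy 1.11.5 (seed 1), figures with matplotlib 3.10.9, and TMM factors with edgeR 4.0.16 in R 4.3.3. The code for ratios and intervals was run on simulated counts drawn independently, which is what the intervals assume. RNA bunched in single cells was not simulated, so coverage for such genes was not tested. Alternatives covered doublets, depth, group size, the score, the gates, scaling, and gene minimum.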

Additional observations from a re-analysis of the deposited data

How the results depend on the processing

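No paired analysis was possible because each group of cells comes from 1 library and the labels give no replicates. In all 25 alternatives were run, 4 of them chosen after seeing the data. The aggregated matrix was not run. Against 235 higher genes there were 149 with the ranking split at its median, 84 after thinning to 5000 UMIs, 398 with a lower and 111 with a higher gene minimum, 387 with TMM, and 49 at 2-fold. Against 777 lower genes there were 263 after thinning, 315 without cells of at least 2 SGP marker UMIs, 229 in cleared cells, 1319 with a lower and 338 with a higher gene minimum, and 373 at 2-fold. Gene minimums change how many genes are compared, and otherwise the cause was not tested. Among 123 named genes, 7 of 2934 values lay on the other side of 0 from a value past 1.5-fold. A further 656 lay outside the counting interval of the main ratio, 516 of them smaller in size and 140 not. Osi15 was at -1.71 without the deepest cells, -2.58 with smaller groups, and -1.63 with CG15599 left out of the score. stg was at 0.13 without cells of at least 2 SGP marker UMIs and 0.0774 in cleared cells, and wisp at 0.51 without sisA and Tom cells and 0.64 in cleared cells. List medians ranged between -0.64 and -0.42 for nucleolar genes, 0.16 and 0.39 for ribosomal protein paralogues, and 0.08 and 0.25 for piRNA genes. With TMM the medians of germ plasm, sex determination, mitosis, TFIIA, and zygotic genes turned positive. So did those of migration and adhesion, pioneer and insulator, proteasome, and tubulin genes.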
